A study of Mus musculus with 12 samples.

Results

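Malat1, Neat1, Miat and Snhg11 are long noncoding RNAs (lncRNAs), transcripts that are not translated into protein. The deposited peak lists were searched in 4 fixed windows on mouse build mm9, one for each RNA: chromosome 19 from 5795500 to 5802900 (Malat1), chromosome 19 from 5824500 to 5845700 (Neat1), chromosome 5 from 112642000 to 112658200 (Miat) and chromosome 2 from 158201000 to 158212000 (Snhg11). Every peak that overlapped a window was a member. There were 43 such peaks of 148097 in all, and they merged into 21 regions of 70674. Members were thus chosen by the peak calls, which rest on IP over control tags. The 4 RNAs were also chosen with their age values known. Enrichment over control at a member is therefore described here and not tested, and only its change with age was fitted. The windows carry no exon map of build mm9, so no member is assigned to an exon or an intron, and localisation in the nucleus was not measured.

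N6-methyladenosine (m6A), the commonest internal methyl mark of messenger RNA, was profiled in the hippocampus of wild-type C57BL/6 male mice. Fragments of poly(A)+ RNA were pulled down with an m6A antibody (m6A-IP), and peaks are places with more IP tags than in a control of fragments that were not pulled down. The groups used here were 6-week-old mice and 2-week-old mice, with 2 m6A-IP libraries each, and no allele or agent distinguished them. The labels count 12 samples, of which 8, including adult Fto knock-out mice and their wild-type controls at 8 to 12 weeks, were not analysed here. Replicate libraries are numbered as biological replicates without naming animals, so p-values measure the spread between these libraries. IP depth was 16.1 and 16.5 M tags at 6 weeks, against 23.4 and 23.0 M at 2 weeks. Control depth was 15.8 and 11.7 M at 6 weeks, against 29.3 and 16.8 M at 2 weeks, if the files keep HOMER's default scaling to 10 M (10000000) tags. The older mice therefore had the shallower IP libraries, and age and depth cannot be told apart.

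m6A is written by the METTL3 and METTL14 methyltransferase complex, mostly within a short consensus around a GAC core, and can be removed by FTO and ALKBH5. Malat1 is among the most abundant nuclear RNAs of mammalian cells and gathers in nuclear speckles, which store splicing factors; in human cells, m6A in a hairpin of MALAT1 is known to open the hairpin to the splicing regulator HNRNPC. Neat1, its neighbour on the chromosome, is the scaffold of paraspeckles, and its short polyadenylated isoform and its long isoform start at the same place. Miat, also called Gomafu, lies in nuclear foci of neurons and binds splicing factors such as SF1 and QKI. Snhg11 is a host gene of small nucleolar RNAs that is expressed in neurons.

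The start of each gene is shown for the 3 of the 4 RNAs that the RefSeq promoter table holds (build GRCm38.p6). Below, input RNA at 1 Malat1 region passed the age test, while another Malat1 region, fitted with tags summed, and the Snhg11 region did not. Whether the start of a gene bears on these values was not tested. Each stretch of 300 bases runs 5′ to 3′ on the strand of the gene, with 250 bases before the annotated start and 50 after it. These coordinates belong to GRCm38.p6 and are not on the scale of the mm9 peaks. Capitals mark matches, on either strand, to any of 4 motifs. These were the TATA box TATAAA; the CCAAT box; TGACG, the core bound by CREB family factors; and the GC box GGGCGG.
Malat1, chr19:5802623-5802922, minus strand: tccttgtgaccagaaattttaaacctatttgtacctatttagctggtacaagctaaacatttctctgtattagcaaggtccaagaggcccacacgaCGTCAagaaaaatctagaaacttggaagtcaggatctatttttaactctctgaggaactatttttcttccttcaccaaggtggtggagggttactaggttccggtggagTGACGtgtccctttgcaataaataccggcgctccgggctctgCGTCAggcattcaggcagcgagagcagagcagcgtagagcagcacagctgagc
Miat, chr5:112228899-112229198, minus strand: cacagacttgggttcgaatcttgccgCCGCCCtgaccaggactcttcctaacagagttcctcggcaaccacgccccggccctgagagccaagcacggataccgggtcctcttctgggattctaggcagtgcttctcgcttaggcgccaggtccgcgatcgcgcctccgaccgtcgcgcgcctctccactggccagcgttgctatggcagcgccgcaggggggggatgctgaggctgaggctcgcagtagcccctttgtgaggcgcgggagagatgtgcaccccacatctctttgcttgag
Snhg11, chr2:158375463-158375762, plus strand: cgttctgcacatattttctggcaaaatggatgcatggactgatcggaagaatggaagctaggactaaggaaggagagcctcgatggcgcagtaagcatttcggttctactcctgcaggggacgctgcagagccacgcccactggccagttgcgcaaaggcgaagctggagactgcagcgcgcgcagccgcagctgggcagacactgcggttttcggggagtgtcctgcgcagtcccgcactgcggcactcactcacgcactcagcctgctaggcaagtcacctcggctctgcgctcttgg
The Malat1 stretch held 3 matches to TGACG, a motif found in 20.8% of the 32851 promoters of the table. The Miat stretch held 1 match to GGGCGG, which 35.7% of promoters hold, and the Snhg11 stretch held none of the 4 motifs. TATAAA and CCAAT, present in 13.6% and 37.4% of promoters, were in none of the 3. The G and C content was 47.0% for Malat1, 64.3% for Miat and 60% for Snhg11, against a median of 52.7% over the table. A match is a description of letters and not evidence of binding, and the motifs do not overlap one another here.

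Peaks were not spread evenly along the windows. Malat1 held 16 peaks in 5 regions, Neat1 11 peaks in 5 regions, Miat 9 peaks in 7 regions and Snhg11 7 peaks in 4 regions. At 6 weeks Malat1 had 4 and 6 peaks, against 3 and 3 at 2 weeks. Neat1 had 5 and 3 at 6 weeks, against 2 and 1 at 2 weeks. Miat had 3 and 2 at 6 weeks, against 4 and 0 at 2 weeks, and Snhg11 had 1 and 3 at 6 weeks, against 1 and 2 at 2 weeks. For Neat1 both 6-week lists held more peaks than both 2-week lists, and the same was true of Malat1, while the counts of Miat and Snhg11 overlapped between the ages. The whole lists ran the other way, with 33239 and 36494 peaks at 6 weeks, against 39259 and 39105 at 2 weeks.

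All Neat1 peaks lay between 5842553 and 5845431, a stretch of 2.88 kb that ended 0.269 kb below the high-coordinate end of the window. The 18.1 kb on the other side held no peak in any list. Neat1 is known to be transcribed from the minus strand, like Malat1, so the stretch with peaks lies on its 5′ side. The short polyadenylated isoform shares that side with the long one. The libraries were of poly(A)+ RNA, and the lists give no input where no peak was called. The lack of peaks in the other 18.1 kb is therefore not a measure of m6A there. Malat1 peaks spanned 4.22 kb and ended 0.260 kb from the high-coordinate, 5′ end of the window, and the first 2.92 kb at its low-coordinate, 3′ end held none. In Snhg11, which lies on the plus strand, the region with the most tags was also the one nearest the 3′ end, 0.815 kb from it. Miat peaks were scattered over 14.2 kb of its 16.2 kb window. The nearest peak outside a window was 6.51 kb from Neat1, 8.82 kb from Miat, 16.3 kb from Snhg11 and 21.8 kb from Malat1.

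**Figure D1:**
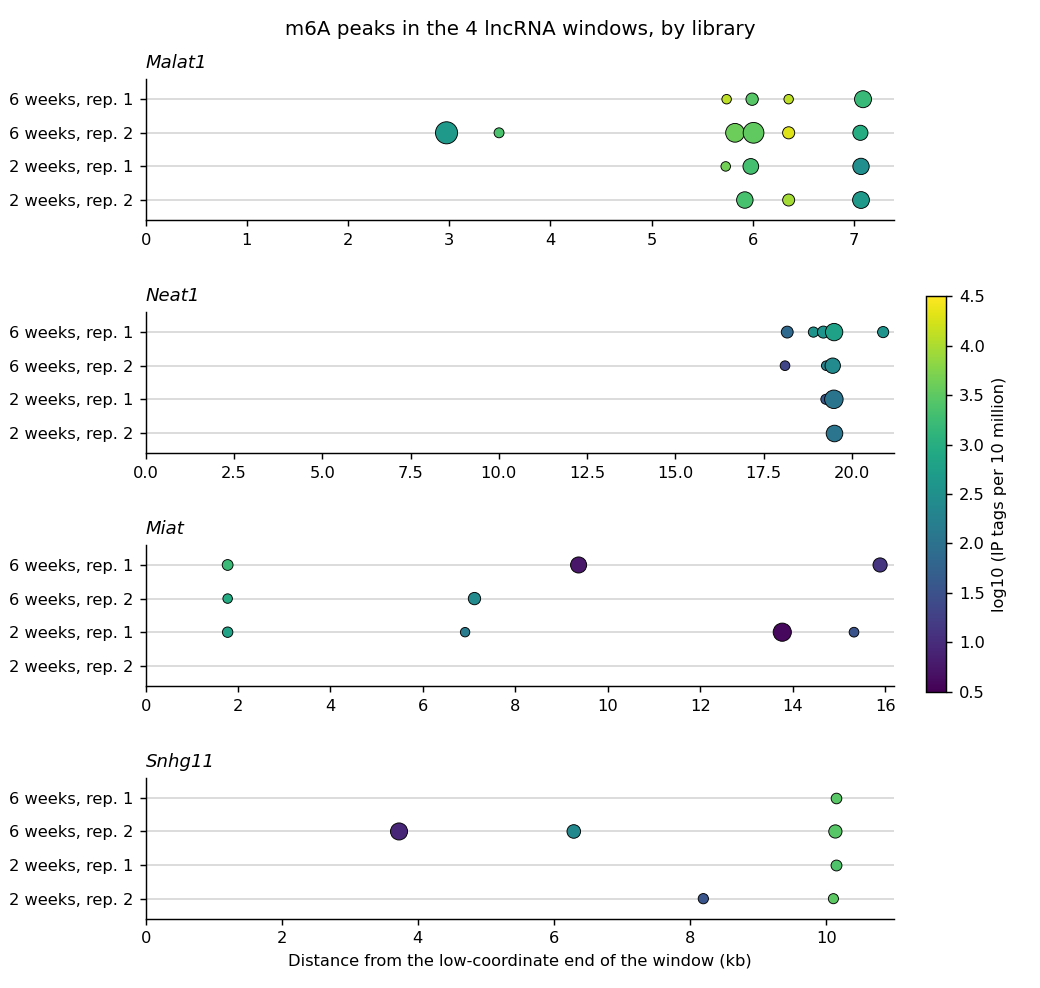
Position of every peak in the 4 windows, in kb from the low-coordinate end of the window, with 1 line per library and 6-week libraries above 2-week libraries. A larger circle means a higher fold over control and the colour gives log10 of IP tags per 10 M. Neat1 peaks sit within the last 3.15 kb of its 21.2 kb window, and 2-week replicate 2 has no Miat peak.

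Of the 21 regions, 4 (19.0%) were called in all 4 libraries, against 14.4% of all regions in the series. They were 2 regions of Malat1, 1 of Neat1 and 1 of Snhg11. A single library called 13 of the 21 (61.9%, against 58.6% in the series). Of these 13 regions, 9 came from a 6-week library, 4 in replicate 1 and 5 in replicate 2, and 4 from a 2-week library, 3 in replicate 1 and 1 in replicate 2. That is 69.2% from 6-week libraries, against 53.2% of all single-library regions in the series, and the difference was not tested. Only 1 region was called in both 6-week libraries and neither 2-week library: Neat1 from 5842553 to 5842716, with 70.1 and 21.8 IP tags per 10 M at 4.81-fold and 3.19-fold over control. No member was called in both 2-week libraries alone. Over the series, 1.92% of regions were called in both 6-week libraries alone and 6.41% in both 2-week libraries alone. A list holds no tags for a region it did not call, so absence from a list is not a level.

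Malat1, the RNA with the most tags of the 4 in these peaks, carried the highest-scoring peak of the whole list in 3 libraries. The share of the library's IP tags under its peaks was 0.297% and 0.305% at 6 weeks, over 400 and 600 bp, against 0.0679% and 0.118% at 2 weeks, over 300 bp each. Per peak of 100 bp the mean was 7422 and 5091 IP tags per 10 M at 6 weeks, against 2264 and 3939 at 2 weeks. The control fragments under the same peaks averaged 2248 and 885 tags per 10 M at 6 weeks, against 572 and 717 at 2 weeks. Each library placed its peaks for itself, so these sums and means do not cover the same bases, and fewer cells that make the RNA cannot be told apart from less RNA per cell.

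The Malat1 region nearest the 5′ end, from 5802514 to 5802640, had exactly 1 peak in every list, with peak starts up to 26 bp apart. Its input, meaning the control tags per 10 M that stand for RNA before the pull-down, stood at 160 and 122 in 6-week mice, against 32.4 and 48.7 in 2-week mice. The groups did not overlap: the lower 6-week value was above the higher 2-week value. IP tags per 10 M were 1577 and 949 at 6 weeks, against 296 and 470 at 2 weeks, which again did not overlap. Enrichment, the authors' fold of IP over control, was 9.84 and 7.77 at 6 weeks, against 9.12 and 9.64 at 2 weeks. Those ranges overlapped, with 6-week replicate 2 the lowest and 6-week replicate 1 the highest.

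Neat1 had the same arrangement at its region from 5843904 to 5844043, where peak starts lay up to 39 bp apart. Input stood at 60.2 and 30.7 control tags per 10 M in 6-week mice, against 9.55 and 11.9 in 2-week mice. IP tags per 10 M were 619 and 248 at 6 weeks, against 111 and 111 at 2 weeks. Both measures were higher in each 6-week library than in each 2-week library, with 6-week replicate 1 the highest of all. Fold over control was 10.29 and 8.06 at 6 weeks, against 11.66 and 9.38 at 2 weeks, so enrichment overlapped between the ages.

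Snhg11 behaved differently at its region from 158211054 to 158211185, with starts up to 31 bp apart. Input was 744 and 471 control tags per 10 M at 6 weeks, against 592 and 907 at 2 weeks. IP tags per 10 M were 2866 and 2812 at 6 weeks, against 2383 and 3150 at 2 weeks. The 2-week values lay on either side of the 6-week values for IP, and the groups overlapped in both measures. Fold over control was 3.85 and 5.97 at 6 weeks, against 4.03 and 3.47 at 2 weeks. In mean IP tags this region stood 7th and in mean input 6th among the 4577 regions that every list called with a single peak, while the Malat1 region stood 94th and 170th and the Neat1 region 505th and 874th.

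**Figure D2:**
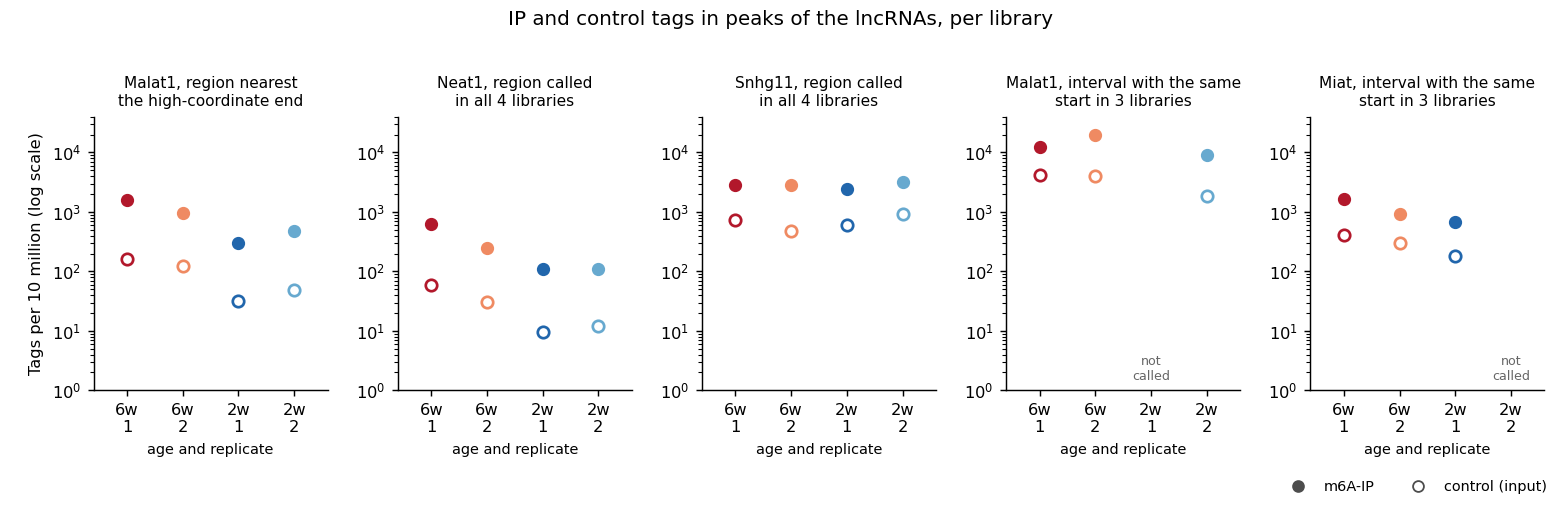
IP tags (filled circles) and control tags (open circles) per 10 M, on a log axis, in each library at 5 places of the lncRNAs, with 6-week libraries left of 2-week libraries. Malat1 and Neat1 circles of both kinds lie higher at 6 weeks, for example 160 and 122 control tags per 10 M against 32.4 and 48.7 at Malat1, while those of Snhg11 overlap; a library whose list has no peak there is marked as not called.

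The age comparison was tested with edgeR's quasi-likelihood fit over all 4577 such regions, with TMM scaling, and 3 members entered it. Input tags rose at Malat1, where the log2 change was 2.34 ± 0.34 SE with an adjusted p of 1.82e-06, and at Neat1 by 2.61 ± 0.42 (adjusted p = 1.09e-05). At Snhg11 the log2 change was 0.23 ± 0.30 (adjusted p = 0.775), with a 95% interval from -0.38 to 0.83, and total tags turned its sign (-0.30). Input was called higher in 1.11% and lower in 1.07% of the regions tested, so 2 of 3 members called higher stand beside a low background. These calls were known when the RNAs were chosen, so neither the calls nor their number is independent support for a difference with age. In tags per 10 M, each 6-week control exceeded each 2-week control in 6.88% of regions and fell short of each in 48.0%.

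IP tags, fitted in the same way, also rose at Malat1, where log2 changed by 2.12 ± 0.44 SE (edgeR adjusted p = 0.0315), and at Neat1, by 2.28 ± 0.40 (adjusted p = 0.0153). The Snhg11 value was 0.50 ± 0.51 (adjusted p = 0.658), with a 95% interval from -0.56 to 1.57. Of all regions tested, 0.852% were called higher and 0.240% lower in IP, and each 6-week IP library exceeded each 2-week one in 6.49% and fell short of each in 43.2%. TMM put the median region at a log2 change of -0.03 for input and 0.03 for IP, while scaling to total tags put it at -0.53 and -0.37, and the changes given here are relative to the median region. With total tags the input calls held for Malat1 (1.81) and Neat1 (2.11), while in IP neither passed (1.72, adjusted p = 0.20, and 1.96, adjusted p = 0.17).

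The calls also depended on having both 2-week libraries. Without 1 of them, the fit took its spread from the 6-week libraries alone. Without 2-week replicate 1, the input changes were 2.15 at Malat1 and 2.54 at Neat1, each with an edgeR adjusted p of 0.732, and without 2-week replicate 2 they were 2.55 (adjusted p = 0.302) and 2.67 (adjusted p = 0.468). In those input fits edgeR called 0 of the 4577 regions, with 285 and 372 at an unadjusted p under 0.05. In IP the same omissions gave 1.88 and 2.35 without replicate 1 (adjusted p = 0.621 and 0.13) and 2.40 and 2.21 without replicate 2 (adjusted p = 0.298 and 0.222). Without either 6-week library, all 4 of these calls passed.

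The ratio of IP to input was then tested as the interaction of fraction and age in the same regions. No member passed: the log2 change was -0.20 ± 0.39 at Malat1, -0.31 ± 0.45 at Neat1 and 0.25 ± 0.38 at Snhg11 (SE; edgeR adjusted p = 0.999 for each). The Snhg11 value was -0.27 without 6-week replicate 2 (edgeR adjusted p = 0.794) and 0.77 without 6-week replicate 1 (adjusted p = 0.522). The 95% intervals ran from -1.0 to 0.60, from -1.23 to 0.60 and from -0.51 to 1.02; a p that misses the threshold does not show that the ratio was the same at both ages. The share of all regions called was 0 in each direction, with 127 of 4577 at an unadjusted p under 0.05 in edgeR and 28 in DESeq2, which also called 0.

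**Figure D3:**
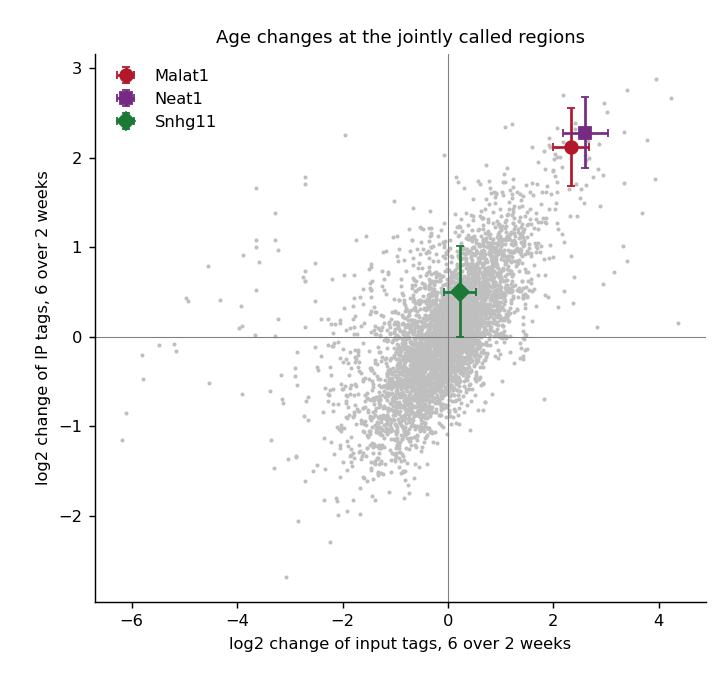
Fitted log2 change, 6 over 2 weeks, of input tags (x axis) and IP tags (y axis) for each of 4577 regions (grey), with the 3 lncRNA regions in colour and bars of 1 SE. Malat1 and Neat1 lie to the upper right, at 2.34 and 2.61 in input and 2.12 and 2.28 in IP, and Snhg11 lies near the centre.

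Elsewhere on Malat1 the position of the peak moved between libraries, and input differed strongly over short distances. Around 5801183 to 5801292 the 6-week replicate 1 peak held 12835 IP and 4189 control tags per 10 M at 3.06-fold, and the 2-week replicate 1 peak held 4452 and 1439 at 3.09-fold. Further along, from 5801372 to 5801558, peaks held only 542 and 224 control tags per 10 M at 6 weeks, against 244 and 238 at 2 weeks, with folds of 5.2 and 14.67 at 6 weeks, against 8.39 and 9.23 at 2 weeks. The other peak of 6-week replicate 2, from 5801275 to 5801375, lay between them at 11.98-fold. These peaks merged into 1 region from 5801183 to 5801558 that was called in all 4 libraries but had 2 peaks in 3 of the lists. When tags were summed over such regions, its input change was 1.71 ± 0.56 (SE; edgeR adjusted p = 0.158) and its IP change 1.37 ± 0.60 (adjusted p = 0.252).

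Exactly the same interval was printed in 3 lists from 5801805 to 5801905. There IP tags per 10 M were 12457 and 19728 at 6 weeks, against 9149 in 2-week replicate 2, and control tags were 4100 and 3948, against 1863. Fold over control was 3.04 and 5.0 at 6 weeks, against 4.91 at 2 weeks. Both 6-week libraries were above the 1 listed 2-week library in IP and in input. How often other regions called in the same 3 lists did so was not counted, so this order is not shown to be unusual. The interval was not tested, because regions missing from a list did not enter the fit. The remaining Malat1 peaks, from 5798424 to 5798524 at 16.61-fold and from 5798943 to 5799043 at 3.36-fold, were called in 6-week replicate 2 alone.

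On Neat1, the region from 5843640 to 5843821 was called in 3 lists, with 377 and 207 IP tags per 10 M at 6 weeks (4.92-fold and 3.15-fold over control), against 38.4 in 2-week replicate 1 (3.41-fold). Its control tags per 10 M were 76.6 and 65.7 at 6 weeks, against 11.3 at 2 weeks. In 2-week replicate 2 there was no peak there. Peaks from 5843358 to 5843458 (3.55-fold) and from 5845331 to 5845431 (4.24-fold) appeared in 6-week replicate 1 alone, with 105 and 88.7 control tags per 10 M.

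Miat had no region called in all 4 libraries. Its strongest peak, with the same printed interval from 112643725 to 112643825 in 3 lists, lies toward the low-coordinate, 3′ end of the window. It held 1646 and 916 IP tags per 10 M at 6 weeks, against 671 in 2-week replicate 1, and 415 and 297 control tags, against 181. Fold over control was 3.97 and 3.08 at 6 weeks, against 3.71 at 2 weeks, all close to the minimum of 3 in the lists. Both 6-week libraries were above the 1 listed 2-week library in IP and input, which was not tested either. The share of other regions in the same 3 lists with that order was again not counted.

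The other 6 Miat regions were each called in 1 library. In the middle of the window, a 6-week replicate 2 peak from 112649065 to 112649165 had 253 IP tags per 10 M at 5.19-fold, and a 2-week replicate 1 peak from 112648862 to 112648962 had 139 at 3.02-fold. Another 2-week replicate 1 peak, from 112657276 to 112657376, had 32.9 at 3.21-fold. The last 3 rested on few tags. They were 9 IP tags against 1 control tag at 112651318 in 6-week replicate 1 (8.81-fold, 95% counting interval 1.22 to 386), 9 against 1 at 112655724 in 2-week replicate 1 (11.26-fold, 1.56 to 493) and 21 against 3 at 112657840 in 6-week replicate 1 (6.85-fold, 2.05 to 35.9). These exact binomial intervals cover counting error only.

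Snhg11 had 3 further regions, each from a single list. In 6-week replicate 2 there was a peak from 158207240 to 158207340 with 231 IP tags per 10 M at 6.29-fold, and one from 158204673 to 158204773 with 14 IP tags against 1 control tag (9.93-fold, 95% counting interval 1.51 to 420). In 2-week replicate 2 there was a peak from 158209143 to 158209243 with 36.1 IP tags per 10 M at 3.58-fold.

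Over all 43 peaks, median enrichment was higher where input was lower, which is given as a description. The peaks repeat 21 regions over 4 libraries, so they are not independent of one another. The 5 peaks with over 1000 control tags per 10 M had a median of 3.09-fold and a highest value of 5.0-fold. All lay on Malat1, in the regions from 5801183 and from 5801805. Peaks with 100 to 1000 had a median of 4.62-fold (16 peaks), those with 10 to 100 had 5.06-fold (16 peaks) and those with 10 or fewer had 9.37-fold (6 peaks). The control tags enter both axes, and a peak with few of them can reach a high ratio by counting error. No listed peak had a HOMER p-value over control above 8.32e-05. A peak with 1 to 3 control tags reaches that only at a high ratio, so the listing itself shapes this trend. The peaks just inside the minimum of 3 were at 3.02-fold on Miat, 3.04-fold on Malat1, 3.15-fold on Neat1 and 3.47-fold on Snhg11, and peaks under 3-fold are not in the lists.

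**Figure D4:**
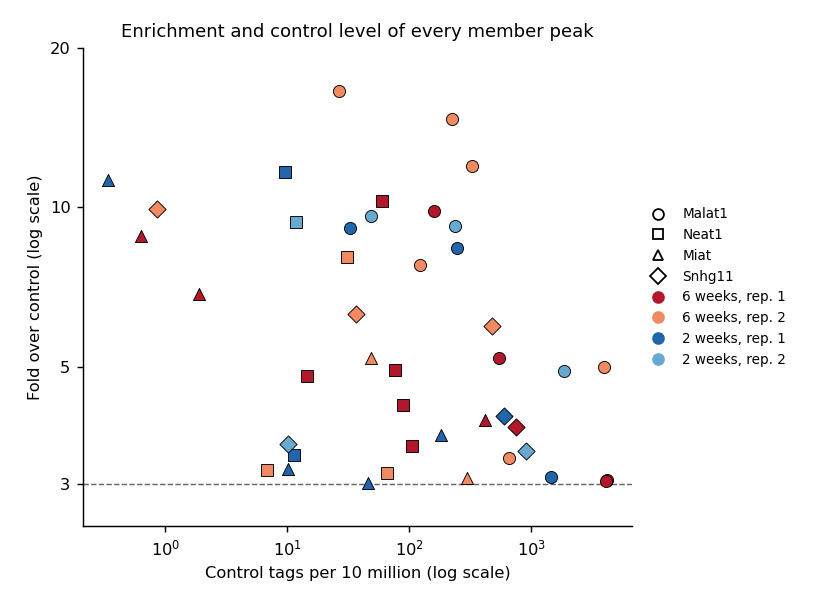
Fold over control against control tags per 10 M for all 43 member peaks, both on log axes, with a symbol for each RNA and a colour for each library; the dashed line is the lists' minimum of 3. The 5 peaks above 1000 control tags lie between 3.04-fold and 5.0-fold, and the highest folds, up to 16.61, are Malat1 peaks of 6-week replicate 2 with lower input.

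Input per 100 bp and 10 M tags was averaged over the peaks of the regions called in all 4 libraries. Where a Malat1 region had 2 peaks in a list, each of them counted. For Neat1 this input was 45.5 ± 20.8 at 6 weeks, against 10.7 ± 1.65 at 2 weeks (n = 2 each with SD, exact two-sided permutation p = 0.333). For Malat1 it was 928 ± 994 at 6 weeks and 358 ± 303 at 2 weeks (p = 0.667, same exact permutation test), where the difference of 570 became -133 without 6-week replicate 1. For Snhg11 it was 608 ± 193 at 6 weeks and 749 ± 223 at 2 weeks (p = 0.667, same exact permutation test). With 2 libraries against 2 this test cannot give a p under 0.333, and the Malat1 replicates differ widely at both ages, with peaks that do not cover the same bases. Malat1 had the highest mean at 6 weeks and Snhg11 at 2 weeks, with Neat1 the lowest at both. These levels are of peaks and not of whole transcripts, and the Malat1 and Snhg11 values overlapped at 6 weeks. At 2 weeks they did not overlap, with 572 and 143 for Malat1 and 592 and 907 for Snhg11, a difference that was not tested. Over all peaks of the windows the 2-week values did overlap, with 572 and 717 for Malat1 and 592 and 458 for Snhg11. Malat1 then had the higher 2-week mean, at 644 against 525, so the order at 2 weeks depended on which peaks were averaged.

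The regions whose input pattern over the 4 libraries was most like the Malat1 region from 5802514, by the smallest distance of log2(control tags per 10 M + 1) centred on each region's mean, were on chromosome 14 from 70920356 (distance 0.259), chromosome 10 from 3456497 (0.327), chromosome 6 from 127722199 (0.411), chromosome 15 from 74502176 (0.482) and chromosome 5 from 131729438 (0.567). The one on chromosome 15 held 95.02 and 59.8 control tags per 10 M at 6 weeks, against 25.2 and 27.9 at 2 weeks, while the other 4 held at most 8.24 in any library. Genes at these places are not named, since no annotation of build mm9 was used.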

How the data were processed

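Per the submitters' processing notes, the tools were HOMER, Cufflinks 2.2.1, Bowtie2 2.2.3 and TopHat2 (2.0.13, 2.1.1) and the build was mm9, with no role or order given. Per the file headers, peaks were called by HOMER in each library, so replicates were not pooled. Neither the caller's options nor which input library served as control is stated in the labels or headers. In the deposited lists, the normalized tag count is a signal, each library having its own scaling constant. Of the deposited tag columns, IP tags are raw counts and control tags scaled in 2-week replicate 1; elsewhere IP tags are the scaled column and control tags the raw one. The deposited fold ratio, p-value and score are the authors' own values per peak; the deposited focus ratio, a fraction, was not used.

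Whole tags were recovered by dividing by the value of 1 tag and were whole within 0.2 tag for 100.0% of IP values in each list. A control entry worth 0.5 tag stands for none and was read as 0. Regions join peaks of any list that overlap by 1 bp or more. Regions with exactly 1 peak per list were fitted in edgeR 4.0.16, with DESeq2 1.42.0 as an alternative, in R 4.3.3. The edgeR fits were quasi-likelihood with TMM, with Benjamini-Hochberg over all regions and a threshold of 0.05. An offset for peak width entered the input and IP fits but not the enrichment fit. Only the edgeR fits were run on simulated counts, and no minimum share of changes to be found was set there for the enrichment fit. Tables used Python 3.11.15, pandas 2.3.3 and scipy 1.17.1. Windows, lists and tests were chosen with earlier results of these data known. Regions given in full were those past a threshold, those highest in IP tags or fold among regions called in all libraries, and those called at one age only; the rest were added after their values were seen. Tags are not unique molecules, so counting intervals cover counting error only. Without an annotation of build mm9, other lncRNAs, speckle and paraspeckle genes and cell type markers were not located, so the labelled tissue was not checked against markers.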

Additional observations from a re-analysis of the deposited data

How the results depend on the processing

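At 8-fold or more over control, a stricter limit that admits fewer peaks by construction, Malat1 had 8 peaks, Neat1 4, Miat 2 and Snhg11 1, and Malat1 and Snhg11 had 0 regions called in all libraries. Requiring peaks to overlap by 50% of the shorter one left Malat1 with 1 such region. Leaving out 1 library gave 2 to 3 such regions for Malat1, 1 to 2 for Neat1 and 0 to 1 for Miat. The lncRNA regions called in input or in IP, 2 each, became 0 to 2 when 1 library was left out, with 0 without either 2-week replicate, and 0 in IP with total tags. Fits without 1 library take the spread of the age with 1 library from the age with 2.

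Snhg11, never past the threshold, changed sign in input with total tags (-0.30). Without 1 library its input change ran from -0.025 to 0.46 and its enrichment change from -0.27 to 0.77. The difference of mean input between 6 and 2 weeks ran from -133 to 1273 for Malat1 and from -299 to 15.9 for Snhg11 without 1 library, a setting added after seeing the data, and the cause was not tested. Over the 4577 regions, 51 higher and 49 lower calls in input turned into 21 and 370 by total tags. DESeq2 called 24 and 15 in input but gave 3461 of the 4577 regions no adjusted p, so these counts rest on fewer regions. Input calls were 30 and 25 among 4412 regions with at least 10 control tags, and 28 and 21 among 10203 regions with tags summed. IP calls (39 and 11) became 0 and 0 by total tags, 60 and 44 with DESeq2 and 72 and 28 among the 10203 regions with tags summed. Among the 1435 regions with starts within 20 bp there were 14 and 14 calls in input and 17 and 5 in IP. Among the 2867 regions within 40 bp there were 52 and 37 in input and 19 and 5 in IP. Without 1 library, input calls ran from 0 to 85 higher and 0 to 72 lower, IP calls from 3 to 402 higher and 1 to 325 lower, and enrichment had 2 higher calls without 6-week replicate 2.

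The replicate numbers were not shown to pair the libraries: deviations of same-numbered libraries correlated at 0.0475 in input and 0.0263 in IP over regions. With a replicate block, the lncRNA calls in input and IP were again 2 each and 0 in enrichment, with Malat1 at 2.35 and Neat1 at 2.58 in input, while IP calls over all regions became 112 and 78. None of the 3 lncRNA regions fitted had all 4 peak starts within 20 bp, so that setting gave no value for them, and a limit of 40 bp, chosen after seeing the data, called the same number of them. Depth limits what is listed: regions with 1 to 3 control tags have fold intervals spanning more than 10 times.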
